A study of Mus musculus with 4 samples.

Results

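The cytosolic ribosomal protein genes encode the protein parts of the large (Rpl) and small (Rps) ribosomal subunits. They were compared between mouse neutrophils and G-MDSC, the granulocytic kind of myeloid-derived suppressor cell. Members were the genes whose symbol starts with Rpl or Rps and a digit, together with Rplp0, Rplp1, Rplp2 and Rpsa, and a gene counted when at least 1 probe set (the group of short probes that reads a transcript on the array) carried its symbol alone. Ribosomal S6 kinases, pseudogenes and Rps19bp1 were left out. This gave 49 of 18193 genes, with 105 probe sets, and each gene was represented by its probe set with the highest mean level. Of the 49 genes, 47 passed the filter on dim signals, 46 of them in all 4 arrays, and entered the test among 13139 genes. Rps16 and Rpl3l did not pass and were not tested. The rule takes members by name, but the set was chosen with earlier results of these data known.

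A ribosome needs its proteins in equal numbers, and most of these genes are expressed strongly in every cell that makes protein. Their mRNAs usually start with a C and a run of C and T letters, the terminal oligopyrimidine (TOP) sequence, through which growth signals by way of the kinase complex mTORC1 control translation. Some members also have roles outside the ribosome, and a few have close paralogues with restricted expression. Granulocytes carry out most protein synthesis while they are immature in the bone marrow, and mature neutrophils contain less RNA.

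G-MDSC and neutrophils were each measured in 2 samples, with 1 Affymetrix mouse expression array per sample, all from female C57BL/6 mice. G-MDSC (CD11b+Ly6G+Ly6Clow) were selected for Ly6G from the spleens of mice that had received EL4 lymphoma cells under the skin 3.5 weeks earlier. Neutrophils were washed from the peritoneal cavity 3 h after the last of 2 injections of 1.5 ml of 12% casein, 16 h apart, depleted of F4/80+ cells and selected for Ly6G. Red cells were lysed in both. Nothing in the labels ties the 2 samples of a group to different mice, and a p-value here therefore speaks only for the spread among these arrays, which may be technical. Tissue, tumour, casein and sorting went with cell kind in every array, and their effects cannot be told apart.

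The arrays were not equal in their dim signals. The median signal over all probe sets was 178 in neutrophils replicate 2, against 75.8 to 83.3 in the other 3 arrays, and the 40th percentile was 133 against 45.7 to 52.6. Of 11 granulocyte markers tested, 5 were higher in G-MDSC and 0 lower, and their summed signal was 253320 and 288677 in the G-MDSC arrays and 178142 and 219041 in the neutrophil arrays. Markers of other cells also went with the groups. Of 12 macrophage markers tested, 9 were lower in G-MDSC and 0 higher, with a summed signal of 14381 to 14616 in the G-MDSC arrays and 39276 to 57302 in the neutrophil arrays. Of 12 B and plasma cell markers, 3 were higher and 1 lower, with summed signals of 59567 to 66643 and 55518 to 65423. Of 7 T cell markers, 0 were higher and 1 was lower, with sums of 578 to 939 in the G-MDSC arrays and 1159 to 1165 in the neutrophil arrays. Of 6 platelet and megakaryocyte markers 2 were lower and 0 higher, and their sum was 998 and 1030 in the G-MDSC arrays against 6290 and 18983 in the neutrophil arrays. Among 8 markers of basophils and mast cells, G-MDSC were lower in 5 and higher in 1, with sums of 4041 and 4037 against 16247 and 6557. Of 10 dendritic cell markers 5 were lower and 0 higher, with sums of 23339 and 24507 against 54007 and 73329. Of 7 lymphoma and cell cycle genes 2 were higher and 0 lower, with sums of 18412 and 9942 against 7660 and 8348. Of 7 NK cell markers 1 was higher and 1 lower, with sums of 848 to 1350 and 1207 to 1849. The erythroid sums were 2112 to 2403 and 2534 to 2809, and those of mesothelial and stromal markers 187 to 189 and 221 to 932. No marker in any of these lists had a signal of 0. Their part in the results for ribosomal protein genes was not tested, and in such bulk samples fewer cells of a type and less RNA per cell cannot be told apart.

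The ribosomal protein genes were among the brightest on every array. In each array 36 or 37 of the 47 tested members lay in the top 5% of probe sets, and 20 to 32 lay in the top 1%. Their median signal was 13200 and 14100 in G-MDSC replicates 1 and 2, 15700 in neutrophils replicate 1 and 23500 in neutrophils replicate 2. The median in the second neutrophil array thus stood well apart from those in the other 3 arrays, which lay close together. The 47 probe sets took 1.69% and 1.86% of the summed signal of the G-MDSC arrays and 1.92% and 2.64% of that of the neutrophil arrays. In 42 of 47 members the highest of the 4 values was in neutrophils replicate 2, and in 30 the lowest was in G-MDSC replicate 1.

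**Figure D1:**
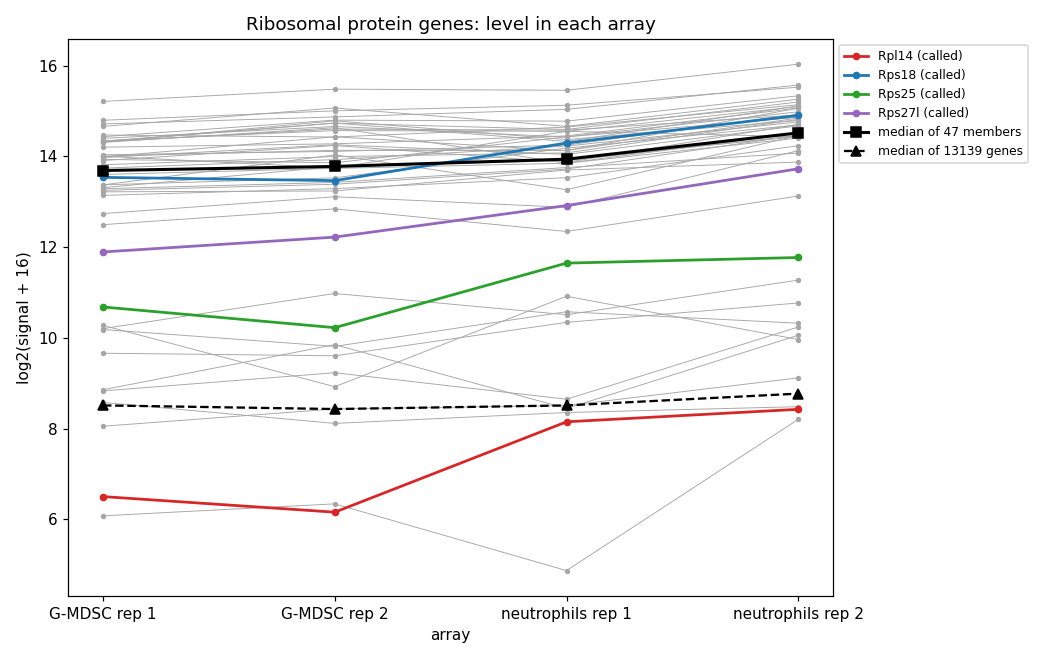
Level of each of the 47 tested ribosomal protein genes as log2(signal + 16) in the 4 arrays; each grey line is 1 gene, coloured lines are the 4 genes past the threshold, squares are the median of the members and triangles the median of 13139 genes. Most members lie between 13 and 16, and the member median runs from 13.69 and 13.78 in G-MDSC to 13.94 and 14.52 in neutrophils.

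Differences are given as the mean log2(signal + 16) in G-MDSC minus that in neutrophils, fitted by limma over all genes, with 2 arrays per group. The member differences were small and mostly negative, and few passed the test. Of 47 members, 4 were lower in G-MDSC (Rpl14, Rps27l, Rps25 and Rps18) and 0 were higher at a limma adjusted p under 0.05, which is 8.51% lower where 8.05% of all genes were called lower. In that direction the share was close to the background. No member was higher, where 8.3% of all genes were, and in either direction 16.4% of all genes were called. At an unadjusted p under 0.05 there were 8 of 47 members and 3890 of 13139 genes, so the members did not stand out in this count. The sign was negative in 45 of 47 members, which are not independent since all are read from the same 4 arrays. The median difference was -0.45 over members and -0.18 over all genes, and the middle part of the members, from the lower to the upper quartile, ran from -0.63 to -0.29, against -0.80 to 0.50 for all genes. In 24 members (51.1%) both G-MDSC arrays were below both neutrophil arrays, where 32.2% of all genes were. In 0 members were both above, where 27.3% of all genes were, and in 23 the groups overlapped.

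The direction of the member median depended on the scaling, and its size on the neutrophil arrays. It was -0.27 with quantile normalization and -0.51 with cyclic loess normalization, but 0.11 when the medians of the arrays were set equal, since neutrophils replicate 2, with its raised dim signals, was then scaled down most. The median of all genes moved as well, from -0.18 to 0.04, -0.03 and 0.38. The member median minus that of all genes was -0.27 as reported, -0.31 with quantile normalization, -0.48 with cyclic loess and -0.27 with equal medians. Without neutrophils replicate 2 the member median was -0.17 and that of all genes 0.03, and without neutrophils replicate 1 they were -0.73 and -0.35.

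The medians also moved when a G-MDSC array was left out, which leaves 1 array in that group. Without G-MDSC replicate 1 the member median was -0.39 and that of all genes -0.13. Without G-MDSC replicate 2 they were -0.56 and -0.18. The dependence of each call on single arrays is given with its gene below. With all arrays but no intensity trend, limma called 0 of 47 members, where 148 of all genes were higher and 331 lower. With no moderation across genes it called 0 of 47 members and 0 genes in either direction. At an unadjusted p under 0.05 there were 6 members without the trend and 4 without moderation. The 2 neutrophil arrays differed from each other by a member median of -0.58 (replicate 1 minus 2) on the log2 scale, and 3 of 47 members were higher in the first of them. The same difference was -0.21 between the G-MDSC arrays. The difference between groups was larger than the gap between the neutrophil arrays and that between the G-MDSC arrays in 15 of 47 members. The same count was not taken over all genes, so it cannot be set against a background.

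**Figure D2:**
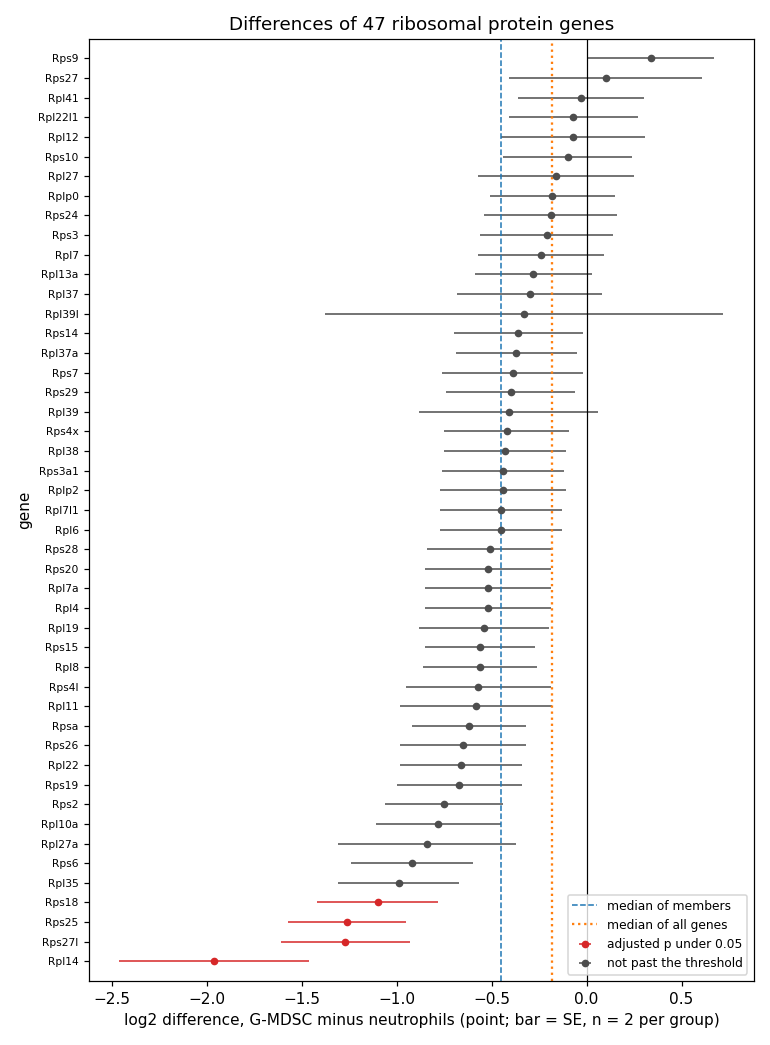
Log2 difference, G-MDSC minus neutrophils, of each of the 47 tested ribosomal protein genes (point) with its SE (bar, n = 2 per group), ordered by size; red points passed limma's adjusted p of 0.05. Of the points, 45 lie below 0, most of them between -0.63 and -0.29, with Rpl14 at -1.96 as the lowest and Rps9 at 0.34 as the highest.

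Rpl14, of the large subunit, had the lowest value of all members. Its signal was 74.5 and 55.3 in G-MDSC replicates 1 and 2 against 268 and 327 in neutrophils, so both G-MDSC arrays lay far below both neutrophil arrays. The log2 difference was -1.96 ± 0.50 (SE, with 2 arrays per group), at a limma adjusted p of 0.0213. It was the dimmest tested member but 1, read by its only probe set with 1 symbol, and its G-MDSC signals were only just above the 40th percentiles of their arrays (45.7 and 52.6). The call was lost without G-MDSC replicate 1 (limma adjusted p = 0.136), without replicate 2 (0.209) and with no filter (0.0726), within a range of 0.00122 to 0.22 over the alternatives.

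Rps27l is a paralogue of the small subunit protein Rps27 and a known target of the tumour suppressor p53. Its signal was 3790 and 4760 in the G-MDSC arrays against 7720 and 13556 in the neutrophil arrays, with no overlap. The log2 difference was -1.27 ± 0.34 (limma adjusted p = 0.0278), and its 3 probe sets lay between -1.27 and -1.22. The call was lost without G-MDSC replicate 1 (limma adjusted p = 0.201), without replicate 2 (0.0584) and with equal array medians (0.614), where the difference was -0.71.

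Rps25, a small subunit protein that some internal ribosome entry sites need, had signals of 1625 and 1180 in the G-MDSC arrays against 3194 and 3482 in the neutrophil arrays. The arrays of each group lay close together and the groups were apart. The log2 difference was -1.26 ± 0.31 (limma adjusted p = 0.018). It was the only member called without G-MDSC replicate 1, and its call was lost without G-MDSC replicate 2 (limma adjusted p = 0.264) and with equal array medians (0.653, difference -0.70).

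Rps18, a protein of the head of the small subunit, had signals of 11889 and 11310 in the G-MDSC arrays against 20110 and 30661 in the neutrophil arrays. The log2 difference was -1.10 ± 0.32 (limma adjusted p = 0.0392), and its 3 kept probe sets lay within 0.09 of one another. The call was lost without G-MDSC replicate 1 (limma adjusted p = 0.208), without replicate 2 (0.264), with no filter (0.118), with the median of its probe sets (0.0764) and with equal array medians (0.631).

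Sequences at the starts of these genes were also searched for a few features. RefSeq (GRCm38.p6) gave windows from 250 bases before to 50 after the annotated start for 43 of the 49 genes. The 49 genes lie on 17 chromosomes. The 4 called genes are shown first, then Rpl35, the next in size, Rpl38, a member among the brightest, and Rps9, the highest value, each from 30 bases before to 20 after the start, on the strand of the gene. Capitals mark the longest run of C and T letters that touches the 10 bases on either side of the start. The windows are chr9:120571487-120571536 (Rpl14, plus strand), chr9:66946056-66946105 (Rps27l, plus; the gene has a further annotated start), chr9:44407684-44407733 (Rps25, plus), chr17:33955646-33955695 (Rps18, minus), chr2:39005112-39005161 (Rpl35, minus), chr11:114668550-114668599 (Rpl38, plus) and chr7:3704011-3704060 (Rps9, plus).
Rpl14: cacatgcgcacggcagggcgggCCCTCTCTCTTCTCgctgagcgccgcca
Rps27l: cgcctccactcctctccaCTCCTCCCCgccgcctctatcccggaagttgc
Rps25: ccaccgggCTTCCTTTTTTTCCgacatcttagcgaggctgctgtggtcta
Rps18: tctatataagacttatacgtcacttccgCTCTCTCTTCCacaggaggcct
Rpl35: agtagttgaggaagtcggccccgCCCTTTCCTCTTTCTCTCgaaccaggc
Rpl38: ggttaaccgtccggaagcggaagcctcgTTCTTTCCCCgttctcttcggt
Rps9: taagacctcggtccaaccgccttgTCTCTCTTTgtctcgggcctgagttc

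The run of C and T letters was 14 long in Rpl14 and Rps25, 9 in Rps27l and Rps9, 10 in Rpl38, 11 in Rps18 and 18 in Rpl35. Among the 43 members with a window, 20 (46.5%) had a run of at least 8 touching the 10 bases on either side of the start. The same held for 2772 of 17491 protein-coding genes (15.8%). Such a run need not include the start: those printed for Rps25 and Rps27l ended before it. At the further start of Rps27l the longest run was 4. A C exactly at the annotated start, followed by at least 4 more C or T letters, was found in 8 members (18.6%) and in 2.67% of all genes, Rpl14, Rps18, Rpl35 and Rpl38 among those members. The letters CTTCCG, the core read by ETS-family factors, were found on either strand of the 300-base window in 30 members (69.8%) and in 23.5% of all genes. The TATA-box letters TATAAA, on either strand, were in 6 members (14%) and in 14.8% of all genes. These matches describe letters in a window whose start depends on the annotation.

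In the large subunit 1 of 25 tested members was lower in G-MDSC by limma and 0 were higher, with 3 at an unadjusted p under 0.05 and a median difference of -0.44. All 25 values were below 0 as reported, from -1.96 for Rpl14 to -0.03 for Rpl41, and the sign is subject to the scaling given above. Rpl35, which lies at the exit of the tunnel for the new protein chain, came closest to a call after Rpl14. Its signal was 10600 and 11803 in the G-MDSC arrays against 18594 and 26533 in the neutrophil arrays, and the difference was -0.99 ± 0.32 (limma adjusted p = 0.0544). It passed with quantile normalization, cyclic loess and the 60th percentile filter. Its difference was -1.24 without neutrophils replicate 1 and -0.73 without neutrophils replicate 2. Rpl35 was chosen for description after its values were seen, as were Rps9, Rpl41, Rpl27a and Rpl10a below.

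Rpl11 binds and blocks the ubiquitin ligase Mdm2 when ribosome assembly is disturbed. Its signal was 6826 and 8835 in the G-MDSC arrays and 7516 and 17896 in the neutrophil arrays. The groups overlapped, and the spread between the neutrophil arrays was larger than that between groups (log2 difference -0.58 ± 0.40, limma adjusted p = 0.368). Rpl10a had no overlap, with 9746 and 10699 in G-MDSC against 13503 and 22706. Its difference of -0.78 ± 0.33 did not pass (limma adjusted p = 0.146). That difference was -1.15 without neutrophils replicate 1 and -0.40 without neutrophils replicate 2. Rpl27a, by contrast, ran with the replicate number more than with the group, at 1223 and 469 in the G-MDSC arrays and 1918 and 982 in the neutrophil arrays (-0.84 ± 0.47, limma adjusted p = 0.257).

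The stalk of the large subunit recruits translation factors and is built on Rplp0 with the acidic proteins Rplp1 and Rplp2, of which Rplp1 had no probe set with its symbol alone. Rplp0, often used as a reference gene, had signals of 21592 and 25899 in the G-MDSC arrays and 22075 and 32411 in the neutrophil arrays. The groups overlapped, and its log2 difference of -0.18 ± 0.33 was that of the median gene. Rplp2 had 22162 and 28546 in the G-MDSC arrays and 28100 and 41422 in the neutrophil arrays, also with overlap (-0.44 ± 0.33). Neither passed limma's threshold (adjusted p = 0.746 and 0.41), and both signs turned with equal array medians. Rpl38, at 28480 and 32906 in the G-MDSC arrays against 35850 and 47232 in the neutrophil arrays, did not overlap but did not pass either (-0.43 ± 0.32, limma adjusted p = 0.403).

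In the small subunit 3 of 22 tested members were lower in G-MDSC by limma and 0 were higher, with 5 at an unadjusted p under 0.05 and a median difference of -0.52. Rps29, a zinc-binding protein, was the brightest member, with signals of 37987 and 45835 in the G-MDSC arrays and 45055 and 67143 in the neutrophil arrays. The groups overlapped narrowly, and the difference was -0.40 ± 0.34 (limma adjusted p = 0.461). Rps28 had 26929 and 29972 against 33648 and 48810, with no overlap (-0.51 ± 0.33, limma adjusted p = 0.325). Rps10 had 25934 and 34357 in the G-MDSC arrays and 25944 and 39297 in the neutrophil arrays, so that the replicate 1 arrays of the groups were nearly equal (-0.10 ± 0.34).

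Rps6, the protein phosphorylated by S6 kinases below mTORC1, had signals of 794 and 763 in the G-MDSC arrays against 1282 and 1729 in the neutrophil arrays. The groups did not overlap, but the difference of -0.92 ± 0.32 did not pass (limma adjusted p = 0.0731). It passed with cyclic loess normalization (limma adjusted p = 0.0469). The difference was -1.14 without neutrophils replicate 1 and -0.71 without neutrophils replicate 2. Rpsa, which is also known as the laminin receptor, had 16436 and 13743 in the G-MDSC arrays against 24035 and 22201 in the neutrophil arrays, again without overlap (-0.62 ± 0.30, limma adjusted p = 0.198). Rpsa was among the 5 members in which neutrophils replicate 2 was not the highest array.

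Rps19 and Rps26 are among the genes mutated in Diamond-Blackfan anaemia, in which red cell production fails. Rps19 had signals of 9020 and 10008 in the G-MDSC arrays against 11830 and 19287 in the neutrophil arrays. Rps26 had 10157 and 14000 against 15700 and 22226. The groups were apart in both genes, with differences of -0.67 ± 0.33 and -0.65 ± 0.33. Neither passed (limma adjusted p = 0.204 and 0.216). Rps9, of the small subunit body, had the highest difference of the members. Its signal was 20315 and 25416 in the G-MDSC arrays and 14758 and 21680 in the neutrophil arrays, with overlap (0.34 ± 0.33, limma adjusted p = 0.517). Its 3 kept probe sets ran from -0.01 to 0.38, and the -0.01 came from another bright one.

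Paralogues were set against their parent gene within each array, as a log2 ratio. A constant factor on an array cancels in this ratio, but quantile and cyclic loess normalization do not; ratios under other scalings and pseudocounts were added after the data were seen. A level cannot be compared between probe sets, so only the change of the ratio is read. The ratio of Rps27l to Rps27 was 3.04 and 2.37 in the G-MDSC arrays and 4.48 and 3.67 in the neutrophil arrays, a G-MDSC minus neutrophil difference of -1.37, with no overlap. It lay between -1.38 and -1.23 under the other scalings and pseudocounts run, with no overlap in any of them. Rps27 itself, read by a dim probe set, had signals of 447 and 907 in the G-MDSC arrays and 332 and 1050 in the neutrophil arrays, a log2 difference of 0.10 ± 0.51 that was called higher without neutrophils replicate 2. The ratio of Rpl22l1 to Rpl22 went the other way, at -1.25 and -1.09 in the G-MDSC arrays against -1.88 and -1.63 in the neutrophil arrays, a difference of 0.59. With quantile normalization that difference was 0.41 and the groups overlapped. Rpl22 is known to restrain the expression of Rpl22l1. Rpl22l1 had signals of 5763 and 7338 in the G-MDSC arrays and 5191 and 8940 in the neutrophil arrays, with a difference of -0.07 ± 0.34, and Rpl22 had 13696 and 15604 against 19203 and 27758, with -0.66 ± 0.32 (limma adjusted p = 0.913 and 0.195).

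The other pairs of paralogues overlapped between groups. The ratio of Rpl7l1 to Rpl7 differed by -0.21, that of Rps4l to the X-linked Rps4x by -0.15 and that of Rpl39l to Rpl39 by 0.08, each less than the spread between replicates of at least 1 group. These were not stable under scaling: Rpl7l1 to Rpl7 was at -0.56 with quantile normalization, without overlap, and Rpl39l to Rpl39 at 0.89 with cyclic loess, also without overlap, and at -0.02 with a pseudocount of 64. That of Rps4l to Rps4x was -0.30 with quantile normalization and overlapped in every scaling and pseudocount run. With 2 arrays per group an exact permutation test cannot give a two-sided p below 0.33, so the ratios are a description. Rpl39l, known from the testis, was dim and uneven, with 51.4 and 64.9 in the G-MDSC arrays and 13.2 and 279 in the neutrophil arrays. Rpl3l, known from muscle, was at 26.1 and 27.3 in the G-MDSC arrays and 3.07 and 44.4 in the neutrophil arrays, below the 40th percentile of every array. Rps16 was listed at 1.28 to 4.24 in all arrays by its only probe set with 1 symbol, a level at the bottom of the arrays for a core subunit.

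Probe sets of the same gene did not always read alike. Of the 49 members, 25 had 1 probe set and 24 several, and 94 of the 105 probe sets passed the filter. The 6 kept probe sets of Rps24 ran from -2.27 to -0.19. The -2.27 came from a dim probe set (57.9 and 35.6 in G-MDSC, 143 and 545 in neutrophils), while the brightest gave -0.19. For Rpl13a the bright representative gave -0.28, with 20476 and 24905 in the G-MDSC arrays and 24461 and 30943 in the neutrophil arrays, while a dimmer one gave -1.15. The probe sets of Rpl37a ran from -0.37 to 0.72, those of Rpl22 from -0.85 to 0.19 and those of Rps6 from -0.92 to -0.11. With each probe set as its own feature limma called 5 of 94 lower and 0 higher. Over all probe sets in that fit 1434 were lower and 1349 higher. Their total is not given here, so no background share can be set beside the 5 of 94. A further 105 probe sets that list several symbols, at least 1 of them a ribosomal protein gene, passed the filter. These had a median difference of -0.43, with 5 called lower and 0 higher by limma. In the fit as reported 8.05% of all genes were lower and 8.3% higher. The probe sets with several symbols were examined after the data were seen and are not named.

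The members kept nearly the same order of levels in every array. Across the 47 members Pearson's r between arrays was 0.960 to 0.989, against 0.792 to 0.966 across all 13139 genes. Each is a description of genes read on the same arrays with the same probes, and the wide span of member levels (SD 2.21 to 2.42 on the log2 scale) raises it. To ask how single members moved against the rest, each array was centred on its member median and all genes were fitted again, an alternative added after the data were seen. The members then differed by a median of 0.05, which is near 0 by construction. Of 47 members, 41 lay within 0.5 of 0, where the median SE was 0.34. The same shift moved the median of all genes from -0.18 to 0.31, and with it the shares of all genes given for this fit.

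After centring, Rpl14 was lower in G-MDSC by -1.46 ± 0.40 (limma adjusted p = 0.041), and no other member passed, where 3.52% of all genes were lower and 8.92% higher. At an unadjusted p under 0.05 there were 2 members, a count not taken over all genes in that fit. Both G-MDSC arrays were below both neutrophil arrays in 10 members and above in 11, where 17.9% and 42.4% of all genes were. Relative to the set, Rps27l was at -0.77 ± 0.43, Rps25 at -0.76 ± 0.50 and Rps18 at -0.60 ± 0.33 (limma adjusted p = 0.258, 0.342 and 0.261). At the other end Rps9 was at 0.84 ± 0.32 (limma adjusted p = 0.111), Rps27 at 0.60 ± 0.51, Rpl41, a very short basic peptide, at 0.46 ± 0.31 and Rps10 at 0.40 ± 0.28.

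**Figure D3:**
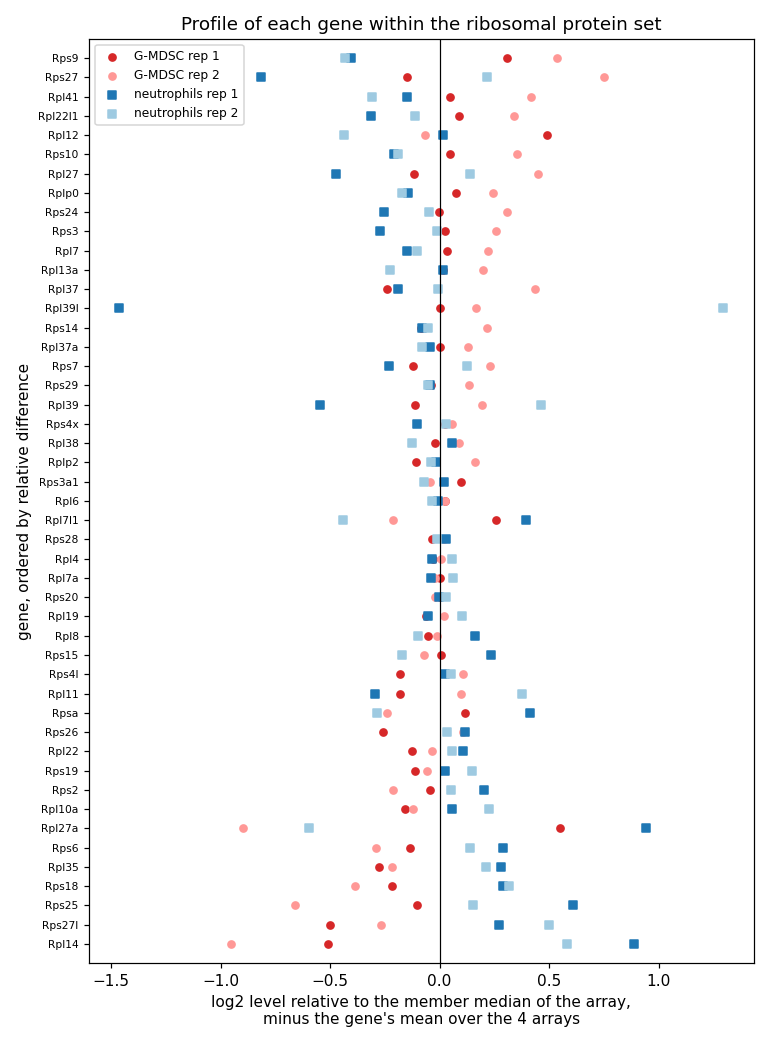
Log2 level of each of the 47 members relative to the member median of its array, minus the mean of the gene over the 4 arrays; circles are G-MDSC and squares neutrophils, 1 point per array. Most points lie within 0.5 of 0, the G-MDSC circles lie left of the neutrophil squares for Rpl14, Rps27l, Rps25 and Rps18 at the bottom and right of them for Rps9 at the top, and Rpl39l and Rpl27a are the most uneven.

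Other genes of ribosome production and its control were counted in the same fit. Of the ribosomal protein genes with other names only Fau, a ubiquitin-like fusion with a small subunit protein, had a probe set with its symbol alone, and its difference was 0.04 ± 0.31. Of 15 other mRNAs of the TOP class, 2 were lower and 0 higher, with a median of -0.30. The nucleolar chaperone Npm1 had signals of 3523 and 2871 in the G-MDSC arrays against 6763 and 10373 in the neutrophil arrays (-1.39 ± 0.32, limma adjusted p = 0.0135), and the elongation factor subunit Eef1d 2084 and 2026 against 4114 and 4644 (-1.08 ± 0.29, limma adjusted p = 0.0276). Both calls were lost with equal array medians (limma adjusted p = 0.553 and 0.748) and without G-MDSC replicate 2 (0.124 and 0.234), and that of Eef1d also without replicate 1 (0.199).

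Of 76 mitochondrial ribosomal protein genes, 17 (22.4%) were lower and 0 higher by limma, with a median of -0.45, the same as that of the cytosolic members but with a wider spread, from -2.68 to 0.94. Mrps6 had signals of 60.4 and 46.5 in the G-MDSC arrays against 384 and 474 in the neutrophil arrays (-2.68 ± 0.47, limma adjusted p = 0.00333), and Mrps25 203 and 90.7 against 731 and 781 (-2.34 ± 0.42, limma adjusted p = 0.00373). The G-MDSC signals of Mrps6 were near the 40th percentiles of their arrays (45.7 and 52.6), and that of replicate 2 was below. Its difference was -2.99 with a pseudocount of 1 and -2.07 with 64. Of 37 genes of ribosome assembly and the nucleolus, 20 (54.1%) were lower and 0 higher, with a median of -1.29. Nop16 had 82.5 and 112 in the G-MDSC arrays against 563 and 917 in the neutrophil arrays (-2.71 ± 0.41, limma adjusted p = 0.00148). Gar1 had 260 and 127 against 1228 and 1276 (-2.68 ± 0.39, limma adjusted p = 0.00114). Both stayed lower with equal array medians (limma adjusted p = 0.000455 and 0.00588). Of 14 genes of rRNA transcription 1, the polymerase I factor Rrn3, was lower and 0 were higher (-1.44 ± 0.37, limma adjusted p = 0.0229, lost without either G-MDSC array, with no filter (0.063), with quantile normalization (0.0501) and with equal array medians (0.267)). With equal array medians the counts of lower genes were 4 of 76, 6 of 37 and 0 of 14, where 453 of all 13139 genes were lower. These counts also changed with the array left out, as did those of all genes. Themes of assembly and the nucleolus were known from earlier results of these arrays, so those counts are not independent evidence.

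Of 16 genes that control TOP mRNAs 1 was higher and 1 lower, with a median of 0.26. Eif4ebp2, a repressor of the cap-binding protein eIF4E, had signals of 5843 and 9299 in the G-MDSC arrays against 3813 and 2955 in the neutrophil arrays (1.13 ± 0.33, limma adjusted p = 0.0385). Eif4e had 977 and 956 against 1645 and 3545 (-1.31 ± 0.38, limma adjusted p = 0.0368). Both calls were lost with equal array medians (limma adjusted p = 0.157 and 0.613) and without G-MDSC replicate 2 (0.462 and 0.119). That of Eif4ebp2 also ended with cyclic loess (0.0566), no filter (0.0524) and its probe sets' median (0.117). That of Eif4e was also lost with quantile normalization (0.074) and when G-MDSC replicate 1 (0.107) or neutrophils replicate 2 (0.0804) was left out. Of 11 p53 response genes 1 was higher and 1 lower. Sesn1, a stress-induced inhibitor of mTORC1, had 1275 and 1017 against 385 and 389 (1.52 ± 0.33, limma adjusted p = 0.00919), which did not pass when G-MDSC replicate 1 (0.184) or 2 (0.0538) was left out. The cell cycle inhibitor Cdkn1a had 1289 and 2081 against 6783 and 7876 (-2.15 ± 0.33, limma adjusted p = 0.00148), a call lost with equal array medians (0.21). Centring on the members ended the calls of Npm1 (limma adjusted p = 0.211), Eef1d (0.447), Rrn3 (0.111), Eif4ebp2 (0.0612), Eif4e (0.293) and Cdkn1a (0.0521). Without the intensity trend these 6, Mrps25 and Sesn1 did not pass (limma adjusted p of 0.0523 for Cdkn1a to 0.161 for Eif4e), and without moderation no gene of the lists did.

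**Figure D4:**
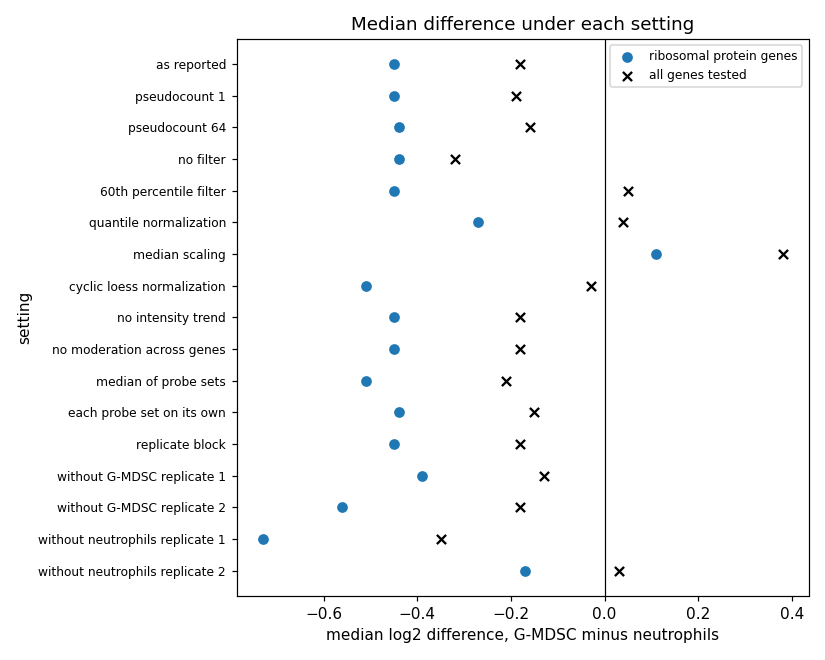
Median log2 difference, G-MDSC minus neutrophils, of the ribosomal protein genes (circles) and of all genes tested (crosses) as reported and under each alternative setting but centring on the members, which is not drawn. The circles lie between -0.73 and -0.17 except with median scaling (0.11), and each circle lies left of its cross.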

How the data were processed

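The deposited values are linear signal intensities; per the submitters' processing notes the authors used GCOS 1.4 with MAS5. These intensities have a 2% trimmed mean of 500 in all 4 arrays, so they were scaled to one another; detection calls, read depth and genome build are not given in the sources used here, and the number of arrays limits the precision. Of 45101 probe sets, 34945 carried 1 symbol in the platform annotation, 932 several and 9160 none; all 49 members matched RefSeq (GRCm38.p6) by gene ID.

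Values were used as log2(signal + 16), on which scale changes of dim genes are understated. Probe sets above the 40th percentile of their array in at least 2 arrays were kept, and the brightest per gene was tested with limma 3.58.1 in R 4.3.3 (lmFit, eBayes with an intensity trend), two-sided, Benjamini-Hochberg over 13139 genes, threshold 0.05. Figures used matplotlib 3.10.9. The functions were tested on simulated data. Members and lists were chosen with earlier results of these data known. Genes named were called members, the 5 brightest and 5 dimmest, paralogues with parents, a fixed set (Rplp0, Rplp2, Rpsa, Rps6, Rpl11, Rps19, Rps26), the 5 with most unlike probe sets, and per list up to 2 called genes per direction. Alternatives were other pseudocounts, filters, scalings, variance models and probe set choices, the replicate block and leaving out each array; centring on the members, probe sets with several symbols and other scalings of the paralogue ratios were added after seeing the data.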

Additional observations from a re-analysis of the deposited data

How the results depend on the processing

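The member median of -0.45 kept its sign except with median scaling (0.11) and with centring on the members, where it is near 0 by construction (0.05); leaving out 1 array gave -0.73 to -0.17. Minus the median of all genes it was below 0 under every setting run, from -0.50 with the 60th percentile filter to -0.13 with no filter. The count of members lower (4) was 2 with no filter, 1 with median scaling, 1 with centring on the members, and 0 both without the intensity trend and without moderation across genes (6 and 4 members at an unadjusted p under 0.05); leaving out 1 array gave 0 to 23 lower and 0 to 1 higher. All genes higher and lower (1091 and 1058) were 148 and 331 without the intensity trend and 0 and 0 without moderation; 453 were lower with median scaling and 462 with centring, and leaving out 1 array gave 429 to 2419 higher and 561 to 3472 lower. Genes of the accompanying lists (2 higher and 42 lower) were 0 and 8 without the intensity trend and 0 and 0 without moderation; 10 were lower with median scaling, 4 higher and 12 lower with centring, 1 higher with the median of probe sets, and leaving out 1 array gave 0 to 9 higher and 18 to 78 lower. The cause was not tested, beyond fewer arrays or genes and the scaling itself.

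With the replicate number as a block, 8 members were lower and 0 higher, Rpl35 (limma adjusted p = 0.00428), Rps6 (0.0284), Rpl10a (0.0329) and Rps2 (0.0406) beside the 4 called as reported, and 1699 and 1607 of all genes and 6 higher among the list genes. Only 2 pairs share a number and the labels do not say that it marks a shared mouse or day. Deviations from the group means correlated at 0.24 over all genes and at 0.62 over the members. With 2 arrays per group these values are the same in both pairs by construction, so the pairs are not separate observations. With 2 pairs and no such label the numbers were not taken as pairing the samples. The probe sets with several symbols gave a median of -0.43.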
